A study of Homo sapiens with 4 samples.

Results

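The type I and type II keratin gene clusters of NCM460 cells, a line of human colonic epithelium, were examined for sites bound by CEBPB, a C/EBP transcription factor with a leucine zipper. The study has 2 CEBPB ChIP samples and 2 inputs, sonicated chromatin without the antibody step. The labels give no treatment or genetic change, number the samples of each group as replicates, and do not say whether these were separate cultures. All samples come from 1 cell line. The peak lists hold no expression, so the epithelial identity of the cells was not checked against keratin or other markers. Members were all peaks with a summit between 38.5 and 40 Mb of chromosome 17, the type I keratin window, or between 52.45 and 53.5 Mb of chromosome 12, the type II keratin window, which also covers KRT18 (hg19 build). The windows held 179 of 75169 peaks of replicate 1 (101 in the type I and 78 in the type II window), 197 of 97829 peaks of replicate 2 (116 and 81) and 48 of 25602 reproducible regions (29 and 19), counted on chromosomes 1 to 22 and X. Reproducible regions come from a table the authors deposited, which pairs peaks of the replicates at an irreproducible discovery rate (IDR) of at most 0.05, a measure of how far their ranks match.

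Keratins form the intermediate filaments of epithelial cells, and each filament pairs an acidic type I with a basic type II keratin. KRT8, KRT18, KRT19 and KRT20 are keratins of simple epithelia such as the colon, KRT5 and KRT14 mark the basal layer of stratified epithelia, KRT1 and KRT10 its differentiating layers, and KRT6A, KRT16 and KRT17 are induced after wounding. KRT18 is a type I keratin that lies at the end of the type II cluster, next to its partner KRT8. C/EBP factors bind DNA as dimers and take part in the differentiation of keratinocytes and of intestinal epithelium.

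In the RefSeq gene table, of the assembly GRCh38.p14, the run of genes on chromosome 17 from KRT222 to KRT17 holds 28 keratin genes and 34 genes of keratin-associated proteins, the matrix proteins of hair, with no other protein-coding gene among them. SMARCE1 precedes the run and EIF1 follows it. On chromosome 12 the run from KRT80 to KRT18 holds 27 keratin genes and no other protein-coding gene, between SMIM41 and EIF4B. That table is of another build than the peaks and served for names and order only. No peak was therefore assigned to a gene, and a site in a window may belong to a flanking gene.

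To show the kind of DNA sequence that C/EBP factors recognise in these genes, the 250 bases before the start sites in the RefSeq promoter table (GRCh38.p14) were searched for the word TTGCNNAA on both strands, which also reads as TTNNGCAA. Of all 35116 promoter windows, 9.05% held it. It was found in 4 of 23 windows of type I keratins on chromosome 17 (3 genes: KRT10, KRT39 and KRT40, the last in overlapping windows of different start sites), in 7 of 33 windows of keratin-associated proteins and in none of 15 windows of type II keratins on chromosome 12. The full palindrome TTGCGCAA, held by 0.131% of all windows, was in none of them. The keratin windows came from 20 type I and 14 type II genes, and keratin genes without a window were not searched. Of simple epithelial keratins, 1 of 4 type I and 1 of 2 type II genes had a window. Of stratified keratins 4 of 9 type I and 6 of 13 type II genes did, and of hair and root sheath keratins 22 of 26. The 3 keratin genes with the word are given with 30 bases on each side, on the strand of the gene, with the word in capitals. KRT10 is the type I keratin of differentiating epidermis, and KRT39 and KRT40 are hair keratins.
KRT10, 121 bases before the start site: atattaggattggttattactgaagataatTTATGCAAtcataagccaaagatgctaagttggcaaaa
KRT39, 132 bases before the start site: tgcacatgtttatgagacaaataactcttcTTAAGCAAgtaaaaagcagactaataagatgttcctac
KRT40, 131 bases before one of its start sites: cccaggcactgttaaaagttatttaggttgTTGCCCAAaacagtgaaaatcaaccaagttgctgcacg
A match of letters is a description and not a bound site, and whether a CEBPB peak lies on any of these promoters was not analysed here.

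To ask whether the keratin clusters held more CEBPB sites than the chromosomes they lie on, sites were counted per Mb. Both windows were denser in peaks than the rest of their chromosome in each replicate. The type I window held 67.3 peaks per Mb in replicate 1 and 77.3 in replicate 2, against 42.4 and 53.4 in the rest of chromosome 17. The ratio was 1.59 in replicate 1 (95% interval 1.29 to 1.93, exact binomial adjusted p = 5.2e-05) and 1.45 in replicate 2 (1.19 to 1.74, adjusted p = 0.00045). The type II window held 74.3 and 77.1 peaks per Mb, against 32.6 and 43.3 in the rest of chromosome 12. Its ratio was 2.28 in replicate 1 (1.80 to 2.85, exact binomial adjusted p = 1.7e-09) and 1.78 in replicate 2 (1.41 to 2.22, adjusted p = 1.1e-05). Tests were two-sided exact binomial tests of the counts given the lengths, adjusted by the Benjamini-Hochberg method over 9 comparisons, and they cover counting error only. Since neighbouring sites are not independent, these p-values are too small to stand for the chromosome as a whole.

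Among reproducible regions the excess was of like size but rested on fewer sites. The type I window held 29 regions, or 19.3 per Mb, against 13.7 in the rest of chromosome 17, a ratio of 1.41 (0.938 to 2.03) that did not pass the test (adjusted p = 0.11, exact binomial). The type II window held 19 regions, or 18.1 per Mb, against 10.3 in the rest of chromosome 12, a ratio of 1.76 (1.06 to 2.76, adjusted p = 0.037, exact binomial). At an IDR of at most 0.01 the calls changed places, with a ratio of 1.73 for type I (adjusted p = 0.036) and 1.81 for type II (adjusted p = 0.073, both exact binomial). The 2 windows did not differ from each other beyond counting error, with a ratio of type I to type II of 0.906 (0.668 to 1.23) in replicate 1, 1.00 (0.748 to 1.35) in replicate 2 and 1.07 (0.579 to 2.02) for reproducible regions (adjusted p of 0.70, 1.0 and 0.99, exact binomial). Those intervals leave room for differences in either direction.

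**Figure D1:**
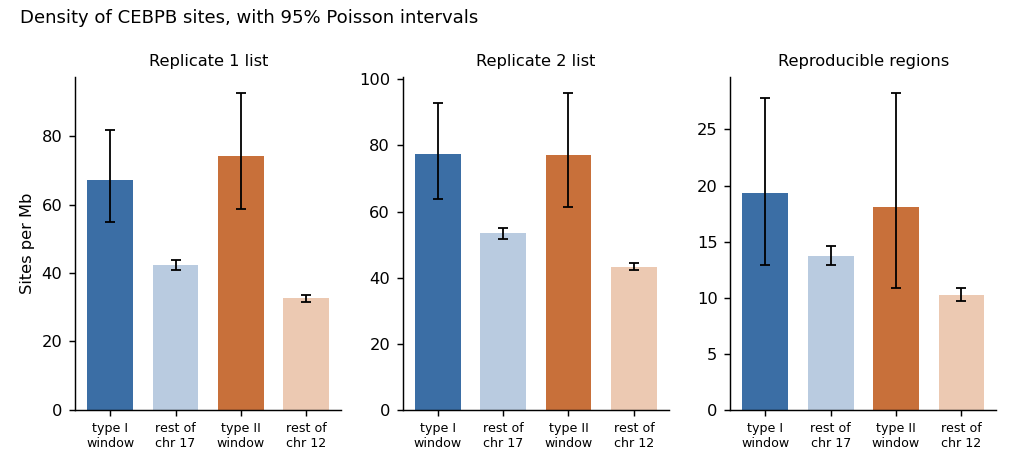
Sites per Mb (y axis) in each keratin window and in the rest of its chromosome, for the list of replicate 1, the list of replicate 2 and the reproducible regions; bars are densities and error bars are 95% Poisson intervals, which cover counting error only. In both lists the windows stand above the rest of their chromosome (67.3 against 42.4 and 74.3 against 32.6 in replicate 1), whereas the intervals of reproducible regions in the type I window and its rest overlap.

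The excess of the type I window depended on its bounds and on what it was set against. With 100 kb taken off each end its ratio was 1.48 in replicate 1 and 1.28 in replicate 2 (adjusted p of 0.0027 and 0.046, exact binomial). With 100 kb added at each end its ratio was 1.75 and 1.59. Against Giemsa-negative bands of chromosome 17 its ratio was 1.37 in replicate 1 (adjusted p = 0.014) and 1.27 in replicate 2 (adjusted p = 0.033), and that of reproducible regions was 1.23 (adjusted p = 0.38, exact binomial). Its own band, 17q21.2, is of the lightest Giemsa-positive class. Against the 4 Mb of that class on chromosome 17 outside the window, which include the flanks of the window in its own band, the ratio was 1.15 in replicate 1 and 1.09 in replicate 2 (adjusted p of 0.55 and 0.70, exact binomial). That comparison was chosen after the data were seen. The type II window lies in the Giemsa-negative band 12q13.13. Against Giemsa-negative bands of chromosome 12 its ratio remained at 1.73 in replicate 1 (adjusted p = 8.0e-05) and 1.38 in replicate 2 (adjusted p = 0.017), while that of reproducible regions was 1.34 (adjusted p = 0.38, exact binomial).

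Tiles of the window's own length, laid end to end along the chromosome, place the windows as a description. Of 53 tiles of 1.5 Mb on chromosome 17, the window's own tile among them, 2 held more peaks than the type I window in replicate 1, 4 in replicate 2 and 8 for reproducible regions. The median tile held 71 and 88 peaks and 21 reproducible regions, against 101, 116 and 29 in the window. Of 126 tiles of 1.05 Mb on chromosome 12, again with the window's own, 6 held more peaks than the type II window in replicate 1, 12 in replicate 2 and 14 for reproducible regions. Here the median tile held 32 and 43.5 peaks and 11 reproducible regions, against 78, 81 and 19. The keratin windows are thus in the upper part of their chromosomes without being their densest stretch. The tiles just before and just after the type I window held 95 and 106 peaks in replicate 1 and 112 and 141 in replicate 2. Its peak count was therefore like that of its neighbours and not particular to the keratin window.

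**Figure D2:**
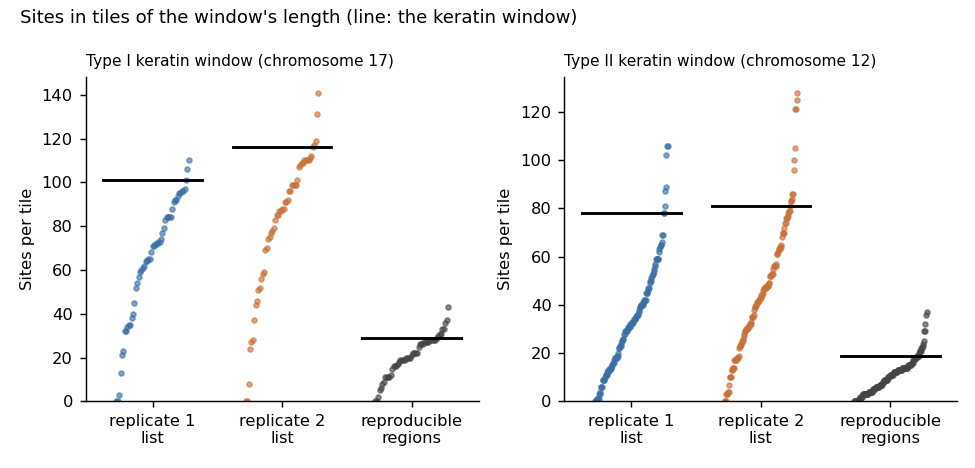
Number of sites (y axis) in every tile of the length of the keratin window along chromosome 17 (left) and chromosome 12 (right); each point is a tile, in rising order, and the black line marks the keratin window. In replicate 1, 2 tiles lie above the line on chromosome 17 and 6 on chromosome 12; the window itself is among the tiles, on the line.

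The input background under the peaks was higher in the type II window than in the rest of its chromosome. It is given in expected fragments, the number of extended reads that the peak caller expects at the summit from the input. Over the 84 summits of the type II window in replicate 1 it averaged 4.82, against 3.16 in the rest of chromosome 12, and over the 90 summits in replicate 2 it averaged 5.27 against 3.33. No summit of this window had the background at the caller's floor, which held 3.17% and 6.07% of summits in the rest of the chromosome in replicates 1 and 2. The type I window was nearer to its chromosome, with 3.38 against 3.09 in replicate 1 and 3.45 against 3.23 in replicate 2. The part of the background in the densities was not tested.

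Inside the windows, sites were unevenly spread. Bins of 50 kb were counted, and the stretches below were marked off after the bins had been seen. In the type I window the first 600 kb held 44 peaks in replicate 1, 54 in replicate 2 and 17 of the 29 reproducible regions. The next 400 kb, from position 39100001, held only 15 and 14 peaks and 3 reproducible regions, or 37.5 and 35.0 peaks per Mb against 73.3 and 90.0 in the first 600 kb. The last 500 kb held 42 and 48 peaks and 9 reproducible regions. The type II window had the same shape. Its first 450 kb held 45 and 49 peaks and 12 reproducible regions, the 350 kb from position 52900001 held 8 and 6 peaks and 3 regions, and the last 250 kb held 25 and 26 peaks and 4 regions. Both windows therefore had a middle that was sparse against its denser ends, with 7.5 and 8.57 reproducible regions per Mb. Each middle rests on 3 regions. The rest of chromosomes 17 and 12 held 13.7 and 10.3 per Mb, so the type II middle was near its chromosome. By peaks both middles lay below their chromosome. The type I middle held 37.5 and 35.0 per Mb, against 42.4 and 53.4 in replicates 1 and 2. The type II middle held 22.9 and 17.1, against 32.6 and 43.3. These differences were not tested.

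**Figure D3:**
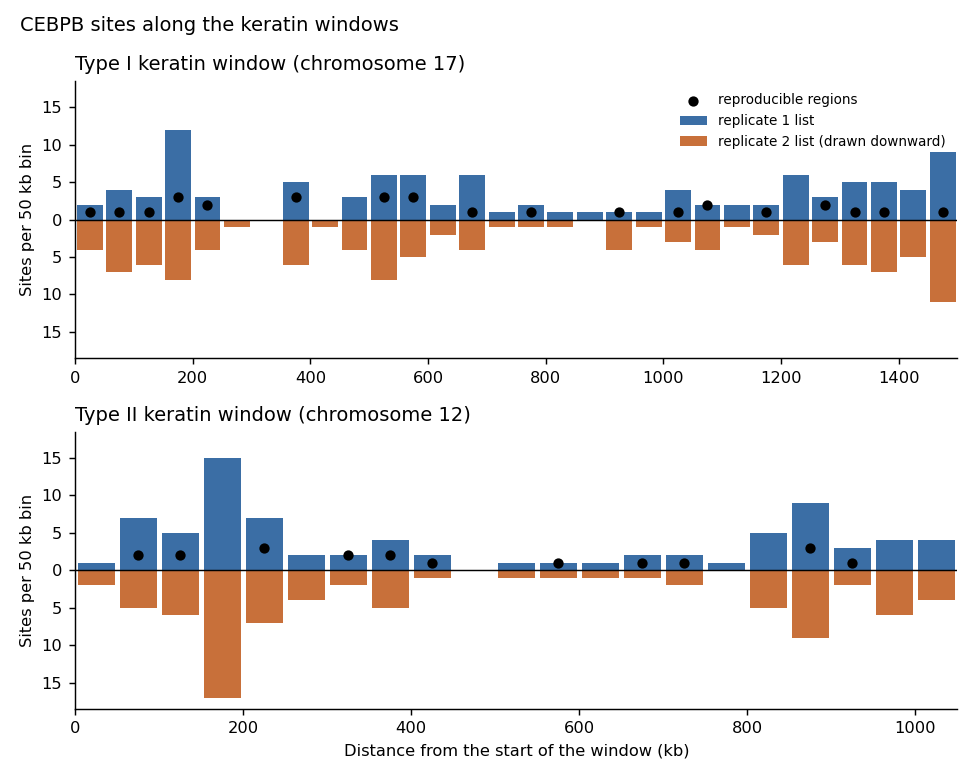
Number of peaks (y axis) in consecutive 50 kb bins against the distance from the start of the window in kb (x axis), with replicate 1 drawn upward, replicate 2 downward and black points for the number of reproducible regions in bins that have any. Bars are low in the middle of both windows, and the tallest bin, with 15 peaks in replicate 1 and 17 in replicate 2, has no black point.

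The longest stretches without a reproducible region lay in these sparse parts. On chromosome 17 the gap of 157 kb ran from the region chr17:39283700-39284050 (fold 11.8 and 18.7 in replicates 1 and 2) to chr17:39440880-39441169 (8.36 and 10.996). It held 2 peaks in replicate 1 and 3 in replicate 2, with at most 28 and 18 fragments. On chromosome 12 the gap of 161 kb ran from chr12:52888315-52888723 (24.3 and 27.2) to chr12:53049225-53049520 (8.69 and 19.9). It held 1 peak in each replicate, with 19 and 25 fragments. The median gap was 36.1 kb in the type I and 34.9 kb in the type II window. In the rest of chromosomes 17 and 12 it was 38.5 and 40.5 kb. The longest gaps there, over far more sequence, were 3687 and 3683 kb. Among the bins, 12 of 30 in the type I window and 10 of 21 in the type II window had no reproducible region. In each window 1 bin had no peak in either list. The share of such bins over the chromosomes is not given here.

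The fullest bin of the type II window had many peaks and no reproducible region. The 50 kb from position 52600001 on chromosome 12 held 15 peaks in replicate 1 and 17 in replicate 2, and 13 of each overlapped a peak of the other replicate. These peaks were low, with a median fold of 5.10 in replicate 1 (range 2.79 to 12.6) and 4.43 in replicate 2 (2.68 to 13.2). They rested on a median of 35 and 37 fragments over a median background of 5.00 in both replicates. Of 2678 bins of chromosome 12, 2 held more peaks in replicate 1 and none held more in replicate 2. In the type I window the fullest bins held 12 peaks in replicate 1, from position 38650001 with 3 reproducible regions, and 11 in replicate 2, from position 39950001 with 1.

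Neighbouring regions formed small groups. Linked at the stitching distance customary in super-enhancer calling, which lies between 5 and 25 kb, 16 of 29 type I regions (55.2%) and 7 of 19 type II regions (36.8%) had a neighbour, against 39.6% of all reproducible regions, 44.02% in the rest of chromosome 17 and 41.3% in the rest of chromosome 12. The order of the windows depended on the distance. At 5 kb 24.1% of type I and 26.3% of type II regions had a neighbour, and at 25 kb 72.4% and 68.4% did. These differences between the windows rest on few regions and were not tested. Shares over all regions at 5 and 25 kb are not given here, so these values compare the windows only with each other. The type I window had 7 groups, of which 2 held 3 regions. The tighter of these spanned 5.78 kb at chr17:39005124-39010906 and joined 3 of the strongest regions of the window, with mean folds from 27.9 to 42.7. The other spanned 13.6 kb at chr17:39058234-39071871, with mean folds from 16.4 to 25.2. The largest of 3 groups in the type II window had 3 regions over 5.48 kb at chr12:52673937-52679414, with mean folds from 13.7 to 24.01.

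To describe how strongly CEBPB was bound, the fold of the authors and the fragments behind it were read for each region. The fold is the ratio of the scaled ChIP pileup to the input background at the summit, with 1 added to both. Among reproducible regions the type I window had a median fold of 18.0 in replicate 1 and 20.0 in replicate 2, against 15.2 and 15.4 in the rest of chromosome 17. It had medians of 88 and 106 fragments, against 66 and 85. The type II window had a median fold of 16.6 and 18.6, against 15.1 and 16.1 in the rest of chromosome 12, and medians of 86 and 115 fragments, against 68 and 91. Regions are not replicates, and these differences were not tested.

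A fold of at least 20 in both replicates was reached by 21.7% of all reproducible regions. In the type I window 12 of 29 regions reached it (41.4%, 95% exact binomial interval 23.5 to 61.1%), against 19.6% of 1095 regions in the rest of chromosome 17. In the type II window 3 of 19 did (15.8%, interval 3.38 to 39.6%), against 21.99% of 1364 in the rest of chromosome 12. The type II share depended on the rule. In replicate 1 alone 31.6% of its regions reached a fold of 20, against 31.8% of all regions, and in replicate 2 alone 26.3% did, against 33.4%. At a fold of 15 in both replicates it was 52.6%, above the 39.6% of all regions, and the type I share was 65.5%. Of the 12 in the type I window, 9 lay in its first 600 kb, 3 in its last 500 kb and none in the sparse middle. No region of either window reached a fold of 30 in both replicates, which 5.49% of all regions did. By fragments, at heights that as many regions reach in each replicate as reach a fold of 20, 15 of 29 and 9 of 19 passed in both replicates, against 27.8% of all regions.

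The strongest region of the type I window lay at chr17:39006356-39007376, with a fold of 56.3 in replicate 1 and 29.1 in replicate 2 and with 199 and 217 fragments. Its mean fold of 42.7 ± 19.2 (SD, n = 2) ranked 503 among all 25602 regions. The replicates differed more in its background, 2.29 against 5.00 expected fragments, than in its fragments. Its neighbours at chr17:39005124-39005565 (fold 25.3 and 30.4, 108 and 151 fragments) and chr17:39010403-39010906 (31.1 and 24.7, 167 and 153 fragments) were also among the 10 strongest.

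The other leading regions of the type I window came partly in close pairs. One pair lay at chr17:38667302-38667792 (fold 28.7 and 27.2, 134 and 169 fragments) and chr17:38668739-38669240 (34.7 and 27.2, 174 and 197 fragments). A second pair lay at chr17:38705400-38705999 (22.8 and 36.5, 196 and 227 fragments) and chr17:38707398-38707856 (21.6 and 34.1, 147 and 158 fragments). In the last 500 kb, single regions lay at chr17:39539959-39540383 (28.4 and 24.2, 82 and 94 fragments), chr17:39595582-39596009 (33.2 and 26.6, 77 and 132 fragments) and chr17:39845479-39845929 (27.9 and 28.6, 186 and 213 fragments). The mean folds of these 7 regions, 26.3 to 30.9, lay closer together than the replicates of most of them, whose SD reached 9.67 (n = 2), so their order is not resolved.

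In the type II window the strongest region lay at chr12:53365346-53366317, near the end of the window, with a fold of 37.6 in replicate 1 and 18.49 in replicate 2 and a mean of 28.1 ± 13.5 (SD, n = 2). Its fragments, 202 and 230, were close, and its background was 4 and 9 expected fragments. Toward the same end lay chr12:53301729-53302348 (fold 16.6 and 29.7, 178 and 191 fragments), chr12:53318011-53318357 (22.6 and 24.6, 145 and 164 fragments) and chr12:53194612-53195414 (14.7 and 21.3, 126 and 150 fragments). By fragments the tallest region of the window was chr12:52673937-52675098, 1162 bp wide, with 212 and 246 fragments over backgrounds of 6.58 and 8 and a fold of 26.1 and 21.97. Only this region, chr12:53318011-53318357 and chr12:52888315-52888723 (24.3 and 27.2, 130 and 135 fragments) passed a fold of 20 in both replicates.

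The other regions among the 10 strongest of the type II window by mean fold were chr12:52849689-52850156 (fold 21.9 and 19.1, 53 and 71 fragments), chr12:52526604-52526945 (17.4 and 18.97, 78 and 115 fragments), chr12:52789899-52790321 (16.1 and 19.9, 86 and 123 fragments) and chr12:53134421-53134753 (17.01 and 18.6, 54 and 92 fragments). The region chr12:52596967-52597495 showed how fold and fragments can part: its fold of 10.1 and 9.01 was the lowest of the window by mean, yet it had 140 and 179 fragments, over the highest backgrounds at a reproducible region of the windows, 12 and 15. It was singled out after its values were seen.

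**Figure D4:**
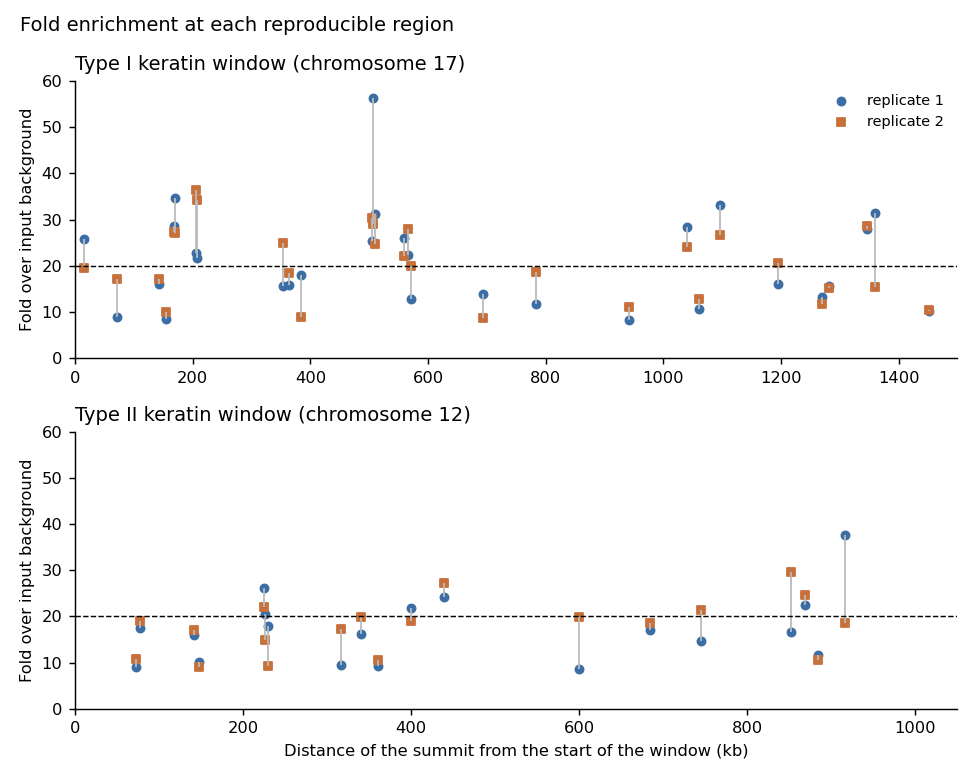
Fold over input background (y axis) of each reproducible region against the distance of its summit from the start of the window in kb (x axis); circles are replicate 1, squares replicate 2, grey lines join the replicates and the dashed line marks a fold of 20. In the type I window 12 of 29 regions have both symbols on or above the line, and in the type II window 3 of 19; the longest grey line belongs to the region with 56.3 and 29.1.

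The regions next to the window bounds were as follows. The first region inside the type I window had a fold of 25.7 and 19.6 and lay 15.4 kb from the bound, and the nearest outside, 9.50 kb before it, had 13.995 and 15.3. At the far end the last inside had 10.3 and 10.5, and a region 2.73 kb outside had 32.2 and 31.1. The first region inside the type II window, 72.6 kb from the bound, had 9.05 and 10.7, and the nearest outside, 62.9 kb before it, had 29.5 and 48.6. At the far end the last inside had 37.6 and 18.49, 134 kb from the bound, and the next outside, at 39.3 kb, had 8.92 and 8.85.

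Regions of the windows were about as wide as others on their chromosomes. Their median width was 480 bp in the type I and 431 bp in the type II window, against 433 and 441 bp in the rest of their chromosomes. More than 1 entry in the authors' deposited table of the IDR was held by 2 of 29 type I and 1 of 19 type II regions, against 6.14% of all regions. The region chr17:38642358-38643407 had 3 entries with separate summits of 106, 109 and 128 fragments in replicate 1 and 106, 112 and 131 in replicate 2; it was singled out after its values were seen. The strongest type II region had a second summit with 66 and 102 fragments. The entries of the strongest type I region shared their summits, so it counts as a single summit.

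The lists of the replicates were then set against each other within the keratin windows. In the type I window 79 of 101 peaks of replicate 1 shared at least 1 bp with the list of replicate 2 (78.2%, exact 95% interval 68.9 to 85.8%), against 82.0% of all peaks of replicate 1. In replicate 2, 77 of 116 did (66.4%, 57.0 to 74.9%), against 62.8% of all. In the type II window the counts were 64 of 78 in replicate 1 (82.1%, 71.7 to 89.8%) and 64 of 81 in replicate 2 (79.01%, 68.5 to 87.3%). The rest of chromosome 12 had 83.5% in replicate 1, slightly above the window, and 62.6% in replicate 2, below the interval of the window. These differences were not tested.

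The share of peaks that entered the IDR table was not raised in the windows. In replicate 1 it was 28.7% in the type I (20.1 to 38.6%) and 24.4% in the type II window (15.3 to 35.4%), against 34.2% of all peaks. In replicate 2 it was 25% (17.4 to 33.9%) and 23.5% (14.8 to 34.2%), against 26.3%. Shared peaks outside the IDR table were 45 of the 78 peaks of the type II window in replicate 1 (57.7%, against 51.9% in the rest of chromosome 12), at a median fold of 5.47. In replicate 2 they were 45 of 81 (55.6%, against 38.8%), at a median fold of 4.83. The strongest of that class were chr12:52624780-52625075 in replicate 1 (fold 12.6, 98 fragments) and chr12:52607358-52607651 in replicate 2 (13.2, 85 fragments), both in the fullest bin. In the type I window they were chr17:39715861-39716279 in replicate 1 (23.7, 70 fragments) and chr17:39113175-39113423 in replicate 2 (11.6, 38 fragments).

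Peaks of 1 replicate without a partner were weak, in the windows as over all chromosomes. In replicate 1 there were 22 in the type I (21.8%) and 14 in the type II window (17.9%), against 18.0% of all peaks. They had at most 32 and 38 fragments. In replicate 2 there were 39 (33.6%) and 17 (20.99%), against 37.2% of all peaks, with at most 36 and 42 fragments. Their median fold was 4.91 and 4.20 in replicate 1, against 4.96 over all such peaks. In replicate 2 it was 4.45 and 5.18, against 5.17. The strongest by fold were chr17:39306103-39306317 (7.90) and chr12:53259167-53259400 (7.5) in replicate 1, and chr17:38934704-38934887 (7.44) and chr12:52490511-52490740 (9.14) in replicate 2.

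At the reproducible regions the median distance between summits was 6 bp in the type I and 10 bp in the type II window, against 8 bp over all regions. All 48 lay within 50 bp, as did 98.8% of all regions. Fragments ranked alike in the replicates, with a Spearman rho of 0.927 over 29 type I regions and 0.926 over 19 type II regions, whereas fold gave 0.659 and 0.4. Over all reproducible regions rho was 0.891 for fragments and 0.607 for fold. These are descriptions across regions that share libraries and depth. The regions were also selected by the IDR, which favours pairs of matching rank. Fragments were compared per region against the median share of regions of like height, in a two-sided exact binomial test adjusted over all 25602 regions by the Benjamini-Hochberg method. Of all regions 2.54% passed it, replicate 1 being higher in 1.49% and replicate 2 in 1.05%. None of the 29 type I regions differed (4 had an unadjusted p under 0.05), and 1 of 19 type II regions did (2 had an unadjusted p under 0.05). Those with an unadjusted p under 0.05 were 13.8% and 10.5% of the windows' regions, against 15.6% of all regions.

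That region, chr12:52678735-52679414, had 96 fragments in replicate 1 and 63 in replicate 2, with a fold of 18.0 and 9.33 (adjusted p = 0.0059, exact binomial). It is the last of the group of 3 at chr12:52673937-52679414, whose other members had more fragments in replicate 2 (212 and 246, and 116 and 148). The test compares 2 libraries and not conditions, and this region is left out at an IDR of at most 0.01. With the spread between replicates added to counting noise, an alternative chosen after seeing the data, no region of the windows differed.

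**Figure D5:**
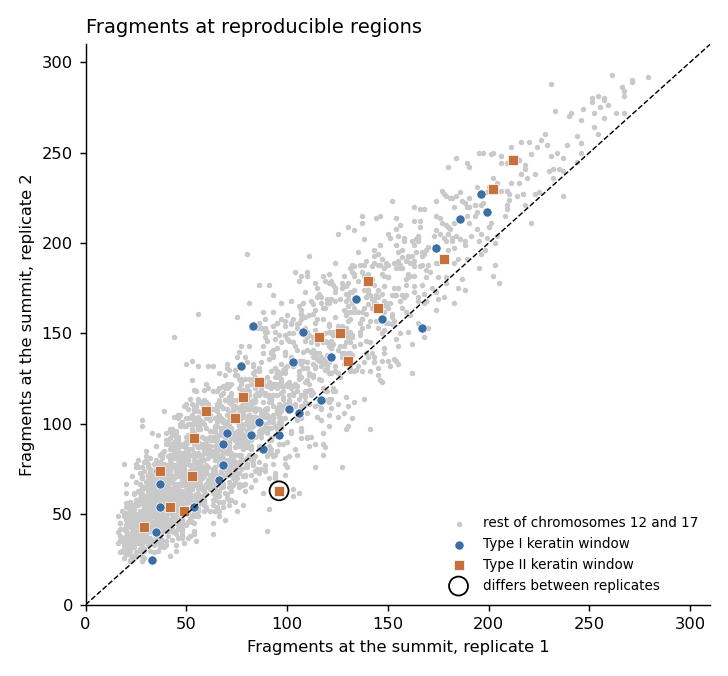
Fragments at the summit of each reproducible region in replicate 1 (x axis) and replicate 2 (y axis), with type I regions as circles, type II regions as squares, the rest of chromosomes 12 and 17 as grey points and equality as a dashed line. The keratin regions lie within the grey points, and the ringed square, with 96 and 63 fragments, is the region that differs between the replicates.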

How the data were processed

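CEBPB ChIP-seq peaks of 2 samples were analysed. Per the submitters' processing notes, FastQC 0.11.7, Bowtie2 2.3.4, SAMtools 1.9, MACS2 2.1.2, bedtools 2.25.0 and hg19 were used. Settings, input pairing and duplicate removal are not given in the sources used here. Each summit has, in the deposited lists called per sample, a score, a fold ratio over background, and −log10 p and q values. In the authors' deposited IDR table, −log10 IDR was used and intervals served as keys; 2 columns of per-sample values were not used.

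Fragments and background were solved from the authors' fold and −log10 p, which gave whole fragments at 100% of summits within 0.005 of the −log10 p, with a scale of 0.927 per read in replicate 1 and 0.800 in replicate 2. The lists do not hold the total read number. The step was tested on simulated data, as were the binomial tests. The simulations of the binomial tests drew independent counts with counting noise only. They do not show how the tests behave where neighbouring sites depend on each other or where replicates spread beyond counting noise. Entries with the same interval were merged, keeping the strongest. Intervals are exact at the 95% level and cover counting error only. The p-values given likewise measure counting noise only and do not include the spread between replicates. Bands came from circlize 0.4.16. Counting and tests ran in SciPy 1.17.1 and pandas 2.3.3 under Python 3.11.15, with figures from matplotlib 3.10.9.

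Windows, gene lists and tests were chosen with earlier results of these data known. Sites named were the 10 strongest regions of each window, regions that differed between replicates, the strongest unmatched peaks, the ends of the longest gap, the largest groups and the regions at the bounds; other sites are marked as chosen later. Gene assignment was not run, since no hg19 annotation was used here.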

Additional observations from a re-analysis of the deposited data

How the results depend on the processing

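The peak density of both windows over the rest of their chromosome kept its direction in each list under every setting tried. No paired analysis was possible because peak lists were given for the ChIP samples only, so no ChIP sample could be set against an input of the same number. Among reproducible regions, the type I ratio passed the threshold at an IDR of at most 0.01 (1.73) and with windows widened by 100 kb (1.59), and single lists in place of reproducible regions gave 1.45 to 1.59. The type II ratio missed it at that IDR (1.81), without centromeric and variable bands (1.71) and against Giemsa-negative bands (1.34), which are also its stain class. Against bands of its stain class, a setting chosen after seeing the data, the type I ratio fell to 1.15 in replicate 1 and 1.09 in replicate 2. The ratio of type I to type II, near 1 and never past the threshold, crossed 1 with narrowed windows (0.909 in replicate 2, 1.0 for reproducible regions), widened windows (1.03 in replicate 1), every summit counted (0.988 in replicate 2) and a −log10 q of at least 5 (0.964 in replicate 2). Single lists gave it as 0.906 to 1.00. The cause of these changes was not tested.

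The share of strong regions was 65.5% and 52.6% (type I and type II) at a fold of 15, against 39.6% of all regions, and 0% in both at 30. It was 47.4% for type II by fragments and 26.3% to 31.6% for type II in single replicates. By overlap in place of the IDR table, the reproducible share was 78.2% and 82.1% in replicate 1 and 66.4% and 79.01% in replicate 2. The ratio of input background to the rest of the chromosome over reproducible regions was 1.14 and 1.01 for type I and 1.36 and 1.28 for type II in replicates 1 and 2. By medians it was 1.00 for type I in replicate 2, and 1.396 and 1.495 for type II. Regions that differed between replicates numbered 0 in the windows and 327 in all at an IDR of at most 0.01. With replicate spread added, also chosen after seeing the data, they numbered 0 and 1. The share with a neighbour was 24.1% for type I and 26.3% for type II at 5 kb, which reverses their order on few regions. It was 72.4% and 68.4% at 25 kb, and 83.5% and 76.6% over shared peaks of replicate 1. Shares over all regions under these settings are not given here. With 29 and 19 reproducible regions the intervals are wide, and they cover counting error only.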
